A study of Arabidopsis thaliana with 4 samples.

Results

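The transcripts described here had a signal of 60 or more on at least 1 array of wild type Arabidopsis thaliana and were brighter when the cold-response regulator CBF2 was expressed from the 35S promoter. A probe set is the group of spots on the array that together report a transcript. Members were chosen by the deposited signals of all 4 arrays: they are the gene probe sets whose higher wild type signal was at least 60 and whose lower 35S::CBF2 signal was at least 2 times that higher wild type signal, so every 35S::CBF2 array exceeded every wild type array by 2-fold or more. Of 22746 gene probe sets, 10002 met the wild type floor and 95 met both limits (0.95%). The rule leaves out 10 of these 95, and 85 members remain. Because the rule uses the signals of the comparison itself, folds and differences of the members are a description, and no test of them is given. On 16 of the 85, 1 of the wild type arrays lay below 60; detection calls were not used. Applied without 35S::CBF2 replicate 1, the same limits chose 147 probe sets, and these include the 85 by construction. Without wild type replicate 1 they chose 119, of which 75 are members, and without wild type replicate 2 they chose 105, of which 79 are members.

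RNA was measured on 4 Affymetrix ATH1 arrays, 1 per sample. The 2 wild type samples were whole plants of the accession Ws-2, and the 2 35S::CBF2 samples were whole plants that overexpress CBF2 under the 35S promoter, a viral promoter active in most plant tissues. All plants were 10 days old, had been stratified for 4 days at 4 °C and were grown on agar plates at 24 °C in continuous light, without a cold treatment. The labels do not name the accession of the 35S::CBF2 plants, 1 title has the code E24 and the other E2 although the protocol names E2 for both, and nothing says whether the samples of a group came from separate cultures. The SE values below therefore rest only on spread between these arrays, which may be technical.

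CBF2, also called DREB1C, is an AP2/ERF-class transcription factor. In plants moved to low temperature, the CBF genes are switched on within a short time, and their proteins bind the CRT/DRE element in the promoters of cold-regulated genes. Many of the best known targets, among them the COR genes, encode hydrophilic proteins that protect membranes and enzymes during freezing, and others act in sugar metabolism, signalling and growth control. The transcript of CBF2 itself is not reported, since 0 probe sets carry it as their 1 gene in the annotation used here.

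Of the 85 members, 38 are assigned to exactly 1 gene in the annotation, 3 to several, and 44 do not appear in it. Genes are named for the 38 only, and all 38 matched the RefSeq gene table, where 6 have a symbol of their own and 32 are known by their locus name. By their names, 5 of the 85 but 0 of the 38 are probe sets that may detect several transcripts. Families and roles of the locus-only genes are given as background knowledge. The 10 probe sets left out include COR47, COR15B, AT4G30650 and AT2G43620, and their folds by the rule ran from 4.87 to 63.6. The members' folds by the rule ran from 2.02 to 8.25 with a median of 2.61. These ranges overlap, so fold alone does not separate all members from the probe sets left out. The median of those left out was 15.6, however, and only 7 members had a fold of 4 or more. The highest folds by the rule belong to probe sets left out.

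As a tissue check, leaf genes of photosynthesis (RCA, SBPASE, LHCB4.2, LHCB4.1) gave signals between 2118 and 8084 on the 4 arrays, and the root gene PYK10 between 1429 and 2046. Of the 6 flower and seed markers listed, 0 had a named probe set. None of these 4 leaf genes or of the root genes PYK10, EXPA7 and EXPA18 passed the test described next, with log2 differences from -0.26 to 0.04. In RNA from whole plants, a change in the share of cells that express a gene and a change in RNA per cell cannot be told apart.

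The groups were also compared over all 13647 probe sets above a filter on dim signals with limma, at a Benjamini-Hochberg adjusted p of 0.05. In that fit 288 probe sets, or 2.11%, were called higher in 35S::CBF2 and 1.25% lower, and 178 were called higher without 35S::CBF2 replicate 2. All 85 members were among the 288; they share their contrast with the rule, so nothing is read from that count. The median log2 difference was 1.70 over the members and -0.04 over all tested probe sets. Paired values below are the MAS5 signals of replicates 1 and 2 of a group. Fold changes are ratios of the geometric means of 2 arrays per group, and log2 differences are 35S::CBF2 minus wild type with limma's SE. That SE draws the spread of a gene's own arrays toward the spread of tested probe sets of similar signal.

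**Figure D1:**
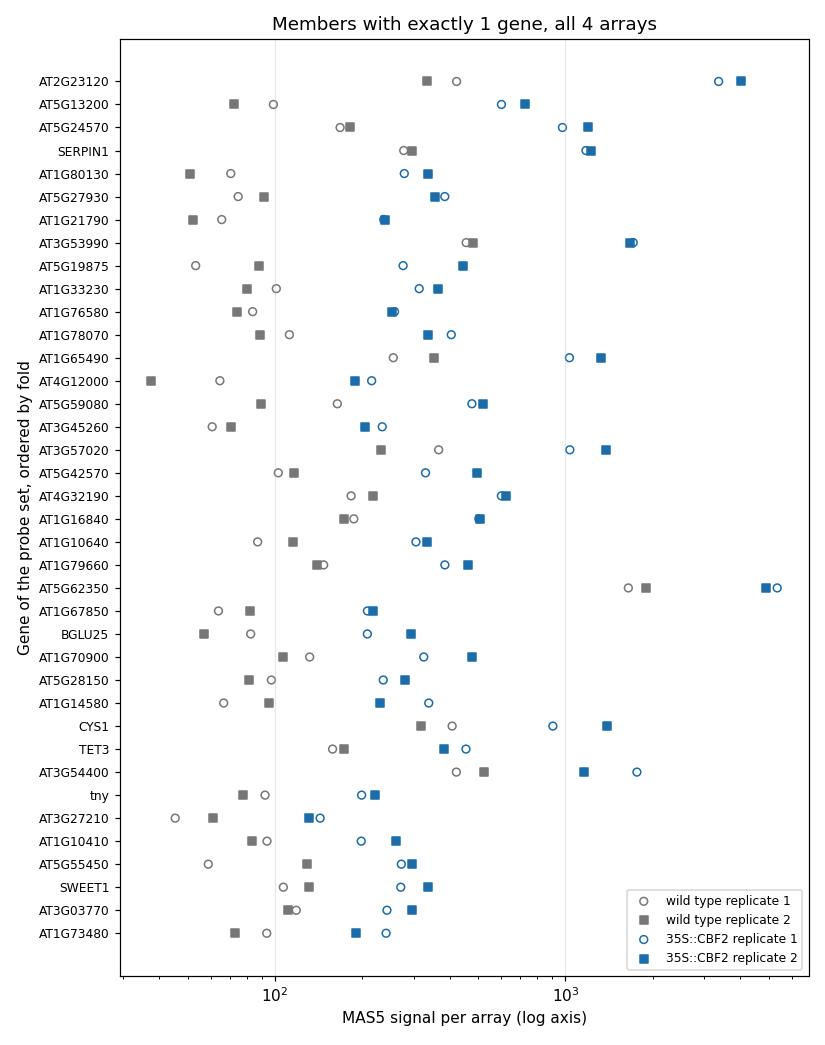
MAS5 signal (log axis) of each of the 38 members with exactly 1 gene on the 4 arrays, ordered from the largest to the smallest fold by the rule. Grey marks are wild type and blue marks 35S::CBF2, open for replicate 1 and filled for replicate 2; AT2G23120 at the top rose from 422 and 333 to 3366 and 4028, and in every row the blue marks lie right of the grey ones, as the rule requires.

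Among members with 1 gene, the largest rise was in a gene for a stress protein. AT2G23120, which encodes a small late embryogenesis abundant (LEA) protein, of a class that accumulates in drying seeds and stressed tissue, gave 422 and 333 on the wild type arrays, against 3366 and 4028 on those of 35S::CBF2. Its signal was 9.83-fold higher (log2 difference 3.30 ± 0.17, SE, n = 2 per group), and the arrays within each group differed far less than the groups. Its neighbour and close relative AT2G23110 stood at 3.41 and 10.0 in wild type but at 18.1 and 12.7 in 35S::CBF2, was below the filter and was not tested. AT3G53990, of the universal stress protein family, gave 455 and 482 without the transgene and 1711 and 1673 with it. The rise was 3.61-fold (1.85 ± 0.14), with arrays of a group almost equal.

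Genes for inhibitors of proteases were members together with a protease gene. SERPIN1 encodes a serpin that inhibits cysteine proteases in plant cells, and its signals of 277 and 296 in wild type stood against 1176 and 1221 in 35S::CBF2. It rose 4.18-fold (log2 difference 2.07 ± 0.15), with nearly the same signal on the arrays of a group. CYS1 encodes a cystatin, another inhibitor of cysteine proteases, at 407 and 318 in wild type, against 905 and 1389 in 35S::CBF2. Its 3.11-fold rise (1.64 ± 0.21) was spread more widely, since the 35S::CBF2 arrays differed 1.54-fold. AT3G54400, of the aspartyl protease family, gave 421 and 525 on the wild type arrays, against 1761 and 1155 on those of 35S::CBF2. It was 3.03-fold higher, and here replicate 1 was the brighter of the 35S::CBF2 arrays.

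The named members included 4 genes for transcription factors, with folds from 2.48 to 3.50. The gene tny (TINY) encodes an AP2/ERF protein of the DREB subfamily, to which CBF2 also belongs, and is known from a dwarf mutant in which it is overexpressed. Its signals rose from 92.4 and 77.7 in wild type to 199 and 222 in 35S::CBF2, a 2.48-fold rise (1.31 ± 0.20). AT1G76580, a gene of the SPL family of SBP-domain factors, stood at 83.8 and 73.8 in wild type but at 258 and 253 in 35S::CBF2, 3.25-fold higher.

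The other two belong to the INDETERMINATE DOMAIN (IDD) family of zinc finger proteins, whose members act in root patterning, gibberellin response and sugar metabolism. AT3G45260 gave 60.8 and 70.8 without the transgene and 234 and 204 with it, and rose 3.33-fold (1.74 ± 0.20). AT1G14580 gave 66.6 and 95.5 on the wild type arrays, against 338 and 231 on those of 35S::CBF2, 3.50-fold higher (1.81 ± 0.25). Both lay clear of wild type on each array, as the rule requires. AT1G14580 differed 1.43-fold between the wild type arrays, and its signal on 35S::CBF2 replicate 2 was 0.68 times that on replicate 1. Of the 16 IDD genes looked up after these values were seen, 5 could be named on the array and 4 were tested. JKD, which encodes a root patterning factor, and IDD16 had log2 differences of -0.83 ± 0.30 and -0.72 ± 0.33, and neither passed (limma adjusted p = 0.235 and 0.388). The difference between these pairs was not tested.

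Of the signalling genes, AT5G27930 encodes a type 2C protein phosphatase of the clade that restrains growth under drought. Its signals rose from 74.7 and 92.0 in wild type to 384 and 355 in 35S::CBF2, a rise of 4.46-fold (2.16 ± 0.19). Its relatives AT3G05640 and AT3G16800 differed by 0.74 ± 0.29 and 0.38 ± 0.32 on the log2 scale, short of the threshold (limma adjusted p = 0.286 and 0.727). AT3G03770, a leucine-rich repeat receptor kinase gene, had the smallest fold of the named members, at 118 and 110.4 in wild type, against 243 and 297 in 35S::CBF2. Its rise was 2.35-fold (1.23 ± 0.19).

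Several members handle sugars, starch or glucosides. SWEET1 encodes a glucose transporter of the SWEET family, at 107 and 131 in wild type, against 271 and 337 in 35S::CBF2, 2.55-fold higher. Of the 14 SWEET genes with a named probe set, 8 were tested, and 3 were called higher (SWEET1, SWEET10 and SWEET13) and 2 lower (SWEET11 and SWEET16), where 2.11% of all tested probe sets were called higher and 1.25% lower. SWEET1 was chosen by the rule on the same contrast. SWEET10 passed the filter on dim signals only through its 35S::CBF2 signals, and SWEET16 only through its wild type signals. Nothing is therefore read from these counts. BGLU25, a beta-glucosidase gene, stood at 82.5 and 56.8 in wild type but at 208 and 293 in 35S::CBF2. It was 3.61-fold higher (1.85 ± 0.25), and the other tested beta-glucosidase genes had log2 differences between -0.74 and 0.55, with none of them past the threshold. AT4G32190 encodes a chloroplast coiled-coil protein that takes part in the initiation of starch granules. Its signals rose from 183 and 218 in wild type to 602 and 626 in 35S::CBF2, 3.07-fold higher (1.62 ± 0.17). DPE1 and PWD, the only tested genes of the 17 listed for starch breakdown and raffinose synthesis, differed by 0.01 and 0.31 on the log2 scale, short of the threshold.

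Genes of the cell wall were also among the members. AT5G62350, from a family of inhibitors of invertases and pectin methylesterases, gave 1646 and 1892 without the transgene and 5356 and 4899 with it. It rose 2.90-fold (log2 difference 1.54 ± 0.14), with wild type signals well above the floor of the rule. AT1G10640, of the polygalacturonase family of pectin-degrading enzymes, gave 87.2 and 116 on the wild type arrays, against 306 and 333 on those of 35S::CBF2, 3.18-fold higher.

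A further 7 named members encode proteins of membranes or lipids, with folds from 2.53 to 7.82. AT5G13200, which encodes a GRAM-domain protein of a group that responds to abscisic acid, stood at 98.8 and 72.5 in wild type but at 602 and 728 in 35S::CBF2. This was the second largest rise among named members, at 7.82-fold (2.97 ± 0.20). AT1G21790, of the TLC family of membrane proteins with a lipid-sensing domain, gave 65.6 and 52.2 without the transgene and 237 and 239.9 with it. Its 35S::CBF2 arrays were nearly equal, and the rise was 4.07-fold. AT4G12000, of the SNARE-associated Golgi protein family, gave 64.6 and 37.5 on the wild type arrays, against 215 and 188 on those of 35S::CBF2, 4.08-fold higher. AT5G42570, related to the animal endoplasmic reticulum protein BAP31, stood at 103 and 117 in wild type but at 329.7 and 494 in 35S::CBF2, 3.69-fold higher.

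TET3 encodes a tetraspanin, a small protein that spans the plasma membrane, and gave 158 and 173 without the transgene and 455 and 383 with it. It rose 2.53-fold (1.34 ± 0.18), while the other 5 tested tetraspanin genes lay between -0.36 and 0.30 on the log2 scale and did not pass. AT1G73480, of the alpha/beta hydrolase family that includes monoacylglycerol lipases, gave 93.7 and 73.0 on the wild type arrays, against 241 and 189.6 on those of 35S::CBF2. Among named members it stood nearest to the fold limit of the rule. AT5G55450, of the lipid transfer protein family, had the widest spread among named members, with wild type signals of 58.9 and 129 against 272 and 295 in 35S::CBF2. Its 3.25-fold difference (1.70 ± 0.31) therefore rests on wild type arrays that differed 2.19-fold.

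**Figure D2:**
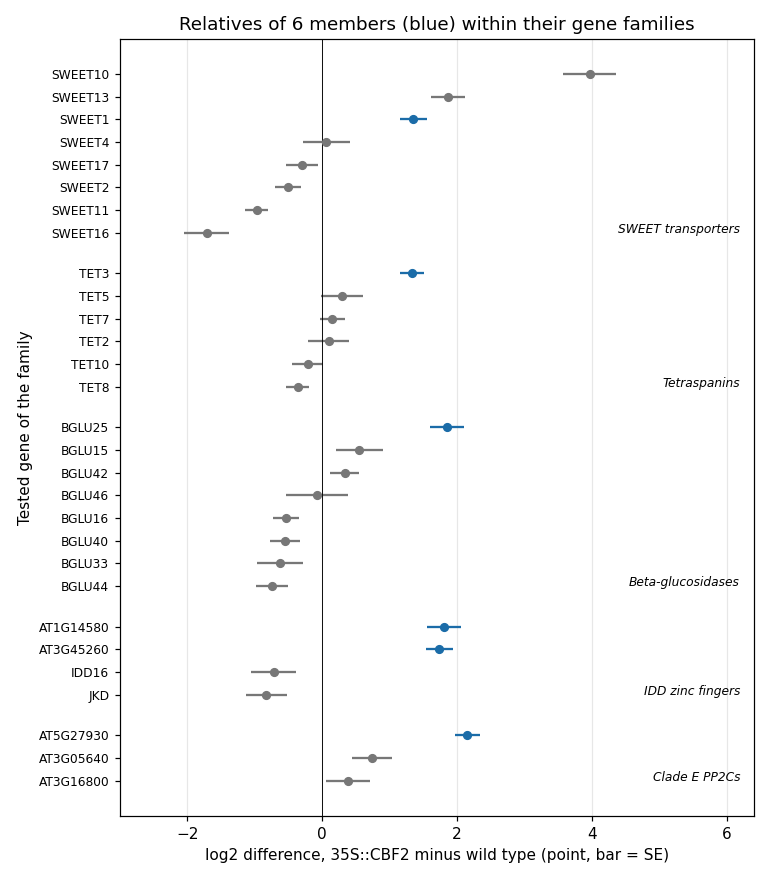
Log2 difference, 35S::CBF2 minus wild type, of every tested gene with a named probe set in 5 gene families; points are the limma estimates and bars their SE, with members in blue. SWEET1, TET3, BGLU25, AT5G27930 and both IDD members lie between 1.34 and 2.16, while SWEET10 and SWEET13 lie to the right as well and the other relatives between -1.72 and 0.74.

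A WD40-repeat gene, AT1G78070, stood at 112 and 89.1 in wild type but at 404 and 337 in 35S::CBF2, 3.69-fold higher. AT1G80130, of the tetratricopeptide repeat family, gave 70.4 and 50.9 without the transgene and 279 and 337 with it, 5.12-fold higher. The groups were apart in each gene, as the rule requires. AT3G57020, of the strictosidine synthase-like family, gave 366 and 231 on the wild type arrays, against 1035 and 1374 on those of 35S::CBF2, and rose (log2 difference 2.04 ± 0.23). It sits between AT3G57010 and AT3G57030, of the same family, which differed by 0.69 ± 0.26 and 0.71 ± 0.20 on the log2 scale, short of the threshold (limma adjusted p = 0.267 and 0.107).

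No role is given here for the remaining 12 named members, whose folds ran from 2.57 to 6.22. AT5G24570 stood at 168 and 181 in wild type but at 976 and 1200.0 in 35S::CBF2, the third largest rise among named members (2.64 ± 0.17). AT1G65490 gave 255 and 353 without the transgene and 1032 and 1330.3 with it. AT5G19875 gave 53.3 and 88.0 on the wild type arrays, against 276 and 443 on those of 35S::CBF2, 5.10-fold higher. In AT5G19875 replicate 2 was the brighter array in both groups, by 1.60-fold in 35S::CBF2 and 1.65-fold in wild type. AT1G33230 (3.76-fold), AT5G59080 (4.12-fold) and AT1G70900 (3.32-fold) rose by more than 3-fold. The folds of AT1G79660 (2.94), AT1G67850 (2.93), AT5G28150 (2.89), AT1G16840 (2.81), AT3G27210 (2.60) and AT1G10410 (2.57) lay lower.

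The genes next to the named members on the chromosome were looked at as a feature the rule did not use. Among the closest protein-coding genes on either side, 35 had a probe set with 1 gene, beside 24 of the members, and 20 of these were tested. In limma 3 of the 20 were called higher and 0 lower (15.0%), where 2.11% of all tested probe sets were called higher. AT1G16850, 1 of the 3, passed the filter on dim signals only through its 35S::CBF2 signals, so nothing is read from that share. AT1G16850, beside AT1G16840, stood at 1.77 and 1.90 in wild type but at 909 and 1569 in 35S::CBF2. AT1G76590, beside AT1G76580, gave 45.8 and 55.8 without the transgene and 238 and 155 with it (log2 difference 1.92 ± 0.25). AT5G62360, of the same pectin methylesterase inhibitor family as its neighbour AT5G62350, gave 105 and 195 on the wild type arrays, against 902 and 339 on those of 35S::CBF2 (1.95 ± 0.40). In these pairs both neighbours were brighter on each 35S::CBF2 array than on either wild type array. The rule requires this of the member, and the other gene was picked by its limma call on the same contrast, so nothing is read from it. In the pair with AT1G16850 the rises differed widely in size, since AT1G16840 rose 2.81-fold from 187 and 173 to 503 and 507. The median log2 difference of the 20 tested neighbours was 0.26.

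Named members lay on all 5 chromosomes, with 16 on chromosome 1, 1 on chromosome 2, 8 on chromosome 3, 2 on chromosome 4 and 11 on chromosome 5. Probe sets with 1 gene that met the wild type floor numbered 1298, 759, 1046, 756 and 1209 on these chromosomes, in the same order. AT2G23120 is the only named member on chromosome 2. Of the 10 probe sets left out, COR15B and AT2G43620 also lie there, AT4G30650 lies on chromosome 4 and COR47 on chromosome 1. Members and left-out probe sets without exactly 1 gene were not placed on a chromosome.

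Starting signals and folds of the members are given as a description of this set. Wild type geometric means of the 85 members ran from 46.8 to 1765 with a median of 118, and folds of geometric means from 2.15 to 12.2 with a median of 3.25. The 4 members with a fold of 8 or more started between 85.0 and 565, and the 5 with a wild type geometric mean of 1000 or more had folds between 2.44 and 3.96. The Spearman correlation of starting signal and fold across the 85 members was -0.15, over probe sets measured on the same 4 arrays. Both values enter the rule, and the starting signal is the denominator of the fold. Nothing is therefore read from that correlation or from where the largest folds lie. The probe sets left out by the rule, with folds of geometric means from 5.65 to 75.9, are not among the 85. By the rule's fold, 35 members lay between 2 and 2.5, 25 between 2.5 and 3, and 25 at 3 or more, of which 7 were at 5 or more. The 44 members without a listed gene had a median fold of 3.24 and the 38 with 1 gene one of 3.33. The largest fold of the set, 12.2, belongs to a probe set without a listed gene.

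**Figure D3:**
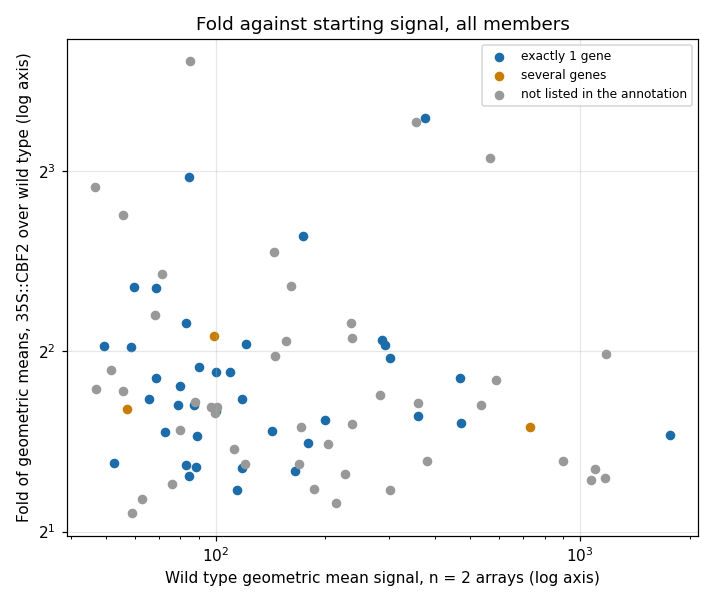
Fold of geometric means (log axis) against the wild type geometric mean signal (log axis) for all 85 members, n = 2 arrays per group, coloured by whether the probe set carries exactly 1 gene, several or none in the annotation. The 4 points at 8-fold or more lie at starting signals between 85.0 and 565, and the 5 points at 1000 or more lie between 2.44-fold and 3.96-fold.

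Among probe sets with 1 gene, those just inside the fold limit were AT1G73480 (2.02), AT3G03770 (2.05), SWEET1 (2.07), and AT5G55450 and AT1G10410 (both 2.11). Those just outside were AT1G27030 (1.99), AT2G46600 (1.97), which encodes a calcium-binding protein, AT3G60520 (1.95), AT2G47890 (1.94), which encodes a B-box zinc finger protein, and AT2G27830 (1.93). Among probe sets that met the floor, 70 had a ratio of geometric means of 2 or more but missed the rule in at least 1 pair of arrays. With the groups exchanged in the limits, 32 probe sets were lower in 35S::CBF2, against 95 higher.

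None of the listed cold genes with a named probe set is a member. Of 30 cold-regulated genes listed, 6 could be tested through a named probe set. In limma 5 were called higher and 0 lower, where 2.11% of all tested probe sets were called higher and 1.25% lower. COR47, COR15B and AT4G30650 met both limits of the rule on the same contrast. COR15A passed the filter on dim signals only through its 35S::CBF2 signals, so nothing is read from this count. COR15A and LTI30 had wild type signals below 60 on both arrays and so missed the floor, while COR47, COR15B and AT4G30650 are among the 10 left out. STZ, which encodes a zinc finger repressor, stood at 23.3 and 39.0 in wild type but at 41.2 and 79.5 in 35S::CBF2 and did not pass (limma adjusted p = 0.310). The listed genes GI of the clock, DFR and UGT78D1 of flavonoid synthesis and GID1A, GID1B and GID1C of gibberellin perception were tested and did not pass either, with log2 differences from -0.46 to 0.61. Log2 differences of the reference genes AT2G28390, AT4G34270 and PEX4 ran from -0.02 to 0.14.

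For most members the arrays of a group were less than 1.5-fold apart. The 35S::CBF2 arrays differed by 1.5-fold or more in 11 of the 85 members and the wild type arrays in 13, with largest differences of 2.83-fold and 3.05-fold. Median differences were 1.18-fold and 1.23-fold, against 1.15-fold and 1.14-fold in 6861 tested non-members in the members' range of mean signal over all arrays. That range was not set by wild type signal, and 36 of the 85 members had a wild type geometric mean under 100. For the wild type arrays, 1.23-fold against 1.14-fold may therefore compare dimmer with brighter probe sets, and nothing is read from it. Of the 85 members, 60 (70.6%) were brighter on 35S::CBF2 replicate 2 than on replicate 1, while among those non-members 47.5% were. Between the wild type arrays 51.8% of the members were brighter on replicate 2. Spike-in controls for the hybridisation, which are of bacterial and phage origin, reached 1.97 times their wild type mean on replicate 2 of 35S::CBF2 and 0.637 times on replicate 1; their part in this imbalance was not tested. The median log2 difference of the members was 1.62 without 35S::CBF2 replicate 2 and 1.76 without replicate 1. After quantile normalization 70.6% of the members were brighter on 35S::CBF2 replicate 2, and after centring each array on its median 78.8% were. Neither share is read against the 47.5%, since no share of the non-members is given after scaling. Median gene probe set signals were 42.4 on 35S::CBF2 replicate 1 and 39.6 on replicate 2, so centring itself raises replicate 2 relative to replicate 1. Whether scaling accounts for the imbalance was not tested.

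**Figure D4:**
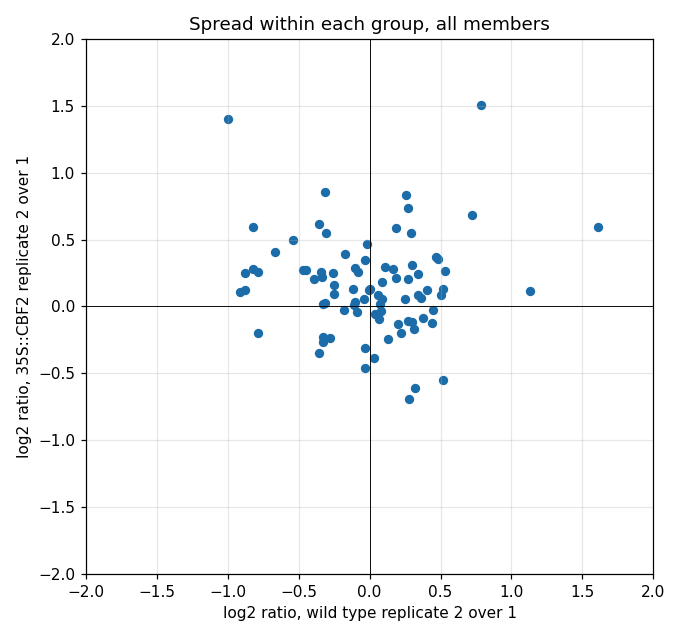
Log2 ratio of replicate 2 over replicate 1 within 35S::CBF2 (vertical axis) and within wild type (horizontal axis) for the 85 members, 1 point per probe set. Points above the horizontal line are the 60 members that were brighter on 35S::CBF2 replicate 2, and the wild type ratios spread to both sides, with 44 brighter on replicate 2.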

How the data were processed

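The authors deposited linear signal intensity, with a single value for each probe set on each array, computed with MAS5 (per the submitters' processing notes, which name no version). The 2%-trimmed mean was 100.0 on every array, so arrays had been scaled before deposit and were used as they are. The 64 control probe sets were left out. No gene probe set had the same value on any 2 arrays, and log2 signals of tested probe sets correlated at 0.966 within each group and at 0.922 to 0.940 across groups.

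Probe sets were named from the platform annotation of 2016, whose gene identifiers were looked up in RefSeq's gene table (assembly TAIR10.1). It gives 13513 gene probe sets 1 gene, 503 several and 8730 none. That table served for names and for gene order only.

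Probe sets with a mean log2 signal above the 40th percentile (geometric mean above 24.8) were tested with limma 3.58.1 in R 4.3.3 (lmFit, eBayes with an intensity trend, two-sided, Benjamini-Hochberg over 13647 probe sets). The procedure was tested on simulated data. The number of arrays limits the precision. Members and gene lists were chosen with earlier results of these data known, and gene families and role groups after the values were seen. All members with 1 gene could be named under the rule for named genes: the 25 largest folds, the 6 highest wild type signals, gene-list, family, neighbour and near-limit members, and any other with 1 gene. The gene table holds no descriptions, so the planned keyword groups were replaced by background knowledge.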

Additional observations from a re-analysis of the deposited data

Results flagged for a closer look

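The 18 hybridisation spike-in probe sets, which enter no comparison, reached 1.97 times their wild type mean on replicate 2 of 35S::CBF2. They are listed since this control signal lay above that of both wild type arrays, at 1.01 and 0.985 times their mean.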

How the results depend on the processing

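The limma calls of the members share the contrast of the rule, so how many keep them says nothing about stability: 80 of 85 did with no intensity trend, 83 on leaving out replicate 2 of either group, and 85 under quantile normalization, centring on medians, no filter, a 60th percentile filter, an offset of 11.7 before the log, and on leaving out replicate 1 of either group. Among named members AT5G55450 had an adjusted p of 0.0852 (limma) with no trend. The rule chose 190 probe sets at a fold of 1.5 and 25 at a fold of 3, as its construction fixes, and 99 to 147 with 1 array left out. With a wild type floor of 30 or 100 it chose 126 or 57, after quantile normalization 86 (all 85 members among them), and after scaling to a common median 85, of which 83 are members. The 288 probe sets called higher were 157 without the trend and 178 to 334 with 1 array left out, where a lone array is taken to vary as the other group does; the cause was not tested. The median log2 difference of the members stayed between 1.58 and 1.76. No paired analysis was possible because the groups share only 1 replicate number in the labels. The planned motif counts in promoters were not run, since no promoter sequence was used here. The arrays have no read depth; their precision is limited by their number, and 36 of the 85 members had a wild type geometric mean under 100.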
